A study of Homo sapiens with 6 samples.

Results

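The coagulation and complement genes that the liver makes were examined in HepG2 cells, a line grown from a human hepatocellular carcinoma. They were chosen by gene name: 45 genes, 21 of coagulation and 24 of complement, which take 46 of the 57773 rows of the deposited gene table because CFB is listed on 2 rows. RNA was sequenced from 3 cultures that received vehicle and 3 that received human recombinant TGFβ1 at 5 ng/mL, all for 3 h. All 6 cultures came from the same line, carried no other agent or genetic change in the labels, and bear the culture numbers 1 to 3 within each group. Cells were grown in MEM with 10% FBS, and the methods describe TGFβ treatment in medium without serum. HepG2 is a single tumor line without the other cell types of a liver. The p-values below measure only the spread among these cultures or, where stated, among the differences of same-numbered cultures. A model across genes moderates that spread. Library totals were 60815385 to 88415362 counted reads with vehicle and 73263662 to 100099136 with TGFβ.

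Hepatocytes secrete most plasma coagulation factors and complement components. In coagulation, serine proteases activate one another in turn until thrombin converts fibrinogen to fibrin, and antithrombin, the protein C system and other inhibitors limit the process. Complement is started by the classical, lectin or alternative route, each of which leads to cleavage of C3 and then to assembly of the membrane attack complex, while soluble and membrane-bound regulators protect host cells.

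The 250 bases before the start site are printed for FGA, FGB, SERPINA10 and C4BPB, where 0 bases are annotated as exon. They are also printed for MBL2, where 48 are, without those bases. The other members called below are not printed. Their exon bases were 35 in SERPINA5, 159 in CD55, 243 in MASP1 and 250 in FGG and CPB2. The printed sequences are from RefSeq (GRCh38.p14), were matched to GRCh37 and run 5′ to 3′ on the gene's strand. The MBL2 run stops at base -49, because the bases after it are annotated as exon. The FGA, FGB, SERPINA10 and C4BPB runs reach 24, 24, 3 and 18 bases into the deposited gene bounds. Capitals mark the letters TTGCNNAA (a C/EBP site), GTTAAT (letters known from liver promoters) or CAGAC (a SMAD box) on either strand. TGANTCA, the AP-1 site, was also searched. The sequences lie at chr4:155511895-155512144 on the minus strand (FGA), chr4:155483882-155484131 on the plus strand (FGB), chr14:94759606-94759855 on the minus strand (SERPINA10), chr10:54531461-54531662 on the minus strand (MBL2) and chr1:207261955-207262204 on the plus strand (C4BPB).
FGA: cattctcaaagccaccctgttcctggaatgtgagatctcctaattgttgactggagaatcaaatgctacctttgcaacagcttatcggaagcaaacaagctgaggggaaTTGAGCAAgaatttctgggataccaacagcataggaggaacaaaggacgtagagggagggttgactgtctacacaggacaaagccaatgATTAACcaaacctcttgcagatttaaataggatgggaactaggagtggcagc
FGB: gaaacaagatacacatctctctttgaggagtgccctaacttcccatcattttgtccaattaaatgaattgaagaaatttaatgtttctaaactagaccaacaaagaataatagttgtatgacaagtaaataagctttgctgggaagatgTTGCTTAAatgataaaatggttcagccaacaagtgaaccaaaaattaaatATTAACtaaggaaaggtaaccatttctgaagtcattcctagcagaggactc
SERPINA10: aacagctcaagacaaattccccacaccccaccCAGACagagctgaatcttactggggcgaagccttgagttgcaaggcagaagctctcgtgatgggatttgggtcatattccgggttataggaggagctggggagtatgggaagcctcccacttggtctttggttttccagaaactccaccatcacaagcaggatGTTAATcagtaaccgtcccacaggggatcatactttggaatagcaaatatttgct
MBL2: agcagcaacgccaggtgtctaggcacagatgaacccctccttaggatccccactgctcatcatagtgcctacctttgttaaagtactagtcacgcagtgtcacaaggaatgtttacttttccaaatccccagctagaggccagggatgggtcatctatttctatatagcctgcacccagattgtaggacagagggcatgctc
C4BPB: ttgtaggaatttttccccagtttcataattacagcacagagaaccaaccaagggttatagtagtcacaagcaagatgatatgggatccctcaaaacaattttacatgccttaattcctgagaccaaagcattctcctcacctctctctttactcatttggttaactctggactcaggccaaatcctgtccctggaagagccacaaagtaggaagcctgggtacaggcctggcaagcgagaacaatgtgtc
FGA and FGB, the fibrinogen α and β chains, each hold a C/EBP site and GTTAAT, and in both the latter lies about equally far from the start, from base -52 to -47 in FGA and from -51 to -46 in FGB. SERPINA10 holds GTTAAT from -55 to -50 and a SMAD box from -218 to -214. MBL2 holds GTTAAT from -33 to -28 and from -23 to -18, beyond the printed run. The C4BPB run holds none of the motifs searched. Over the promoters of the 10 members called in either fit described below, GTTAAT was found in 4, TTGCNNAA in 3, CAGAC in 3 and TGANTCA in 0. Of all 35116 promoters in the table, 6.23% hold GTTAAT, 9.05% TTGCNNAA, 38.0% CAGAC and 6.57% TGANTCA. None of the motifs overlaps another in the printed runs. These are letters in a window and not measured binding. Promoters of the uncalled members were not counted apart, so the counts do not compare called with uncalled members of these liver genes.

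HepG2 cells carried RNA for most of the members. On the deposited RPKM scale, reads per kilobase of gene scaled to library depth, which permits comparison between genes, C3 was the highest of complement at a vehicle mean of 245 and FGG, the fibrinogen γ chain, the highest of coagulation at 213. FGA followed at 181, prothrombin (F2) at 115, the protein C inhibitor SERPINA5 at 107, heparin cofactor II (SERPIND1) at 101 and FGB at 72.1. CFI, the protease that degrades C3b and C4b, was at 38.4. CFB, which carries the protease of the alternative pathway C3 convertase, was at 37.6 on the row used here. On its other row it was at 60.6, with near-equal counts over a listed length of 4069 bases against 6622. Its rank beside CFI thus depends on the row. Of the coagulation genes 12 and of the complement genes 10 were at 10 RPKM or more. At the other end, 4 coagulation and 6 complement genes were under 1 RPKM, among them plasma prekallikrein (KLKB1) at 0.265 and the membrane attack component C6 at 0.121. F9, the gene of factor IX, had 0 reads in 5 cultures and 2 reads in TGFβ culture 3, and was not tested. A count of 0 there allows up to 0.0310 to 0.0487 CPM, the count normalized for library size, for counting error only.

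**Figure D1:**
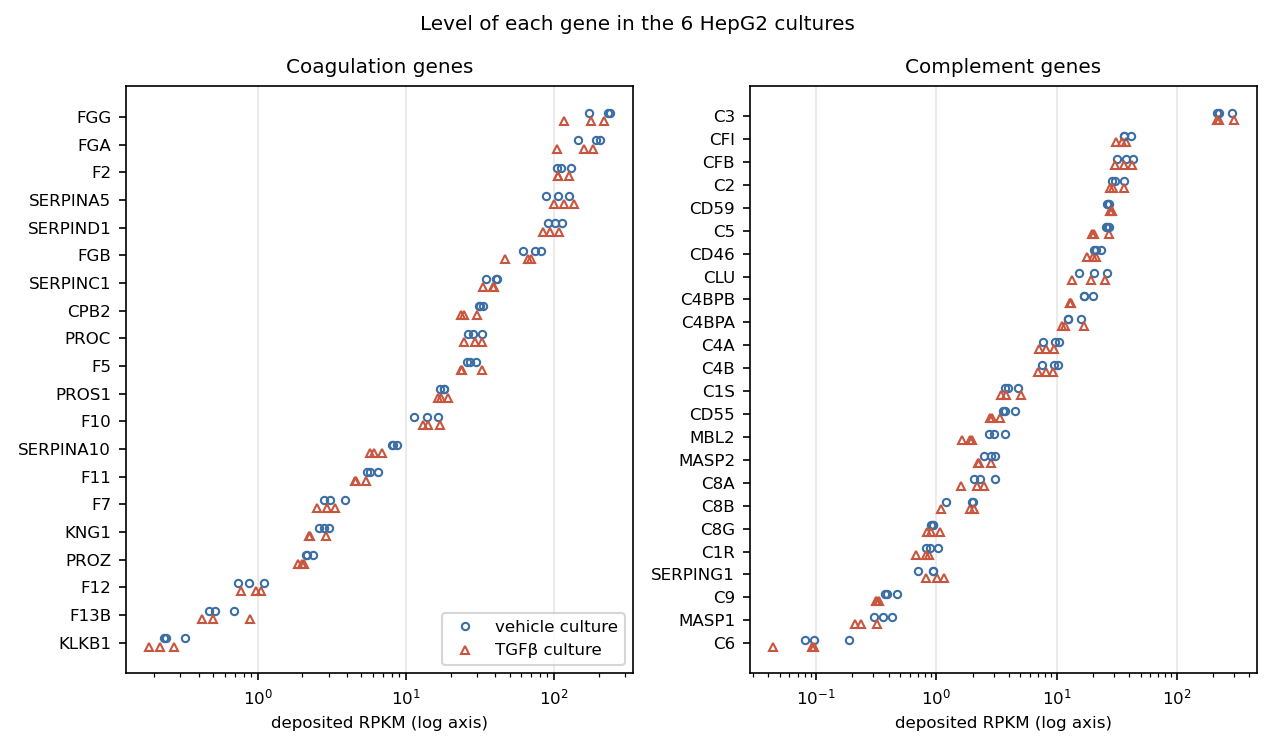
Deposited RPKM (log axis) of each coagulation gene (left) and complement gene (right) in the 3 vehicle cultures (circles) and 3 TGFβ cultures (triangles), F9 left out because its vehicle level was 0. Levels span from C3 at a vehicle mean of 245 to C6 at 0.121, and the vehicle and TGFβ cultures of most genes lie over each other.

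The cells carried hepatocyte RNA in both groups. The summed level of 10 hepatocyte genes was 37255 to 41699.8 CPM with vehicle and 35843 to 40601 with TGFβ, and none of them was called without the block. The summed level of the listed endothelial genes was 1.25 to 1.496 CPM with vehicle and 0.867 to 1.26 with TGFβ, with KDR and CLEC4G at 0. Most of it was LYVE1, at 0.725 to 1.07 CPM with vehicle and 0.444 to 0.905 with TGFβ. For Kupffer cell and leukocyte genes the sum was 1.79 to 3.12 and 2.39 to 3.56 CPM, with MARCO at 0. Nearly all of it was CD14, at 3.07, 1.59 and 1.98 CPM with vehicle and 3.42, 2.20 and 2.89 with TGFβ. LYVE1 and CD14 were not called in either fit. The stellate cell and fibroblast list summed to 16.05 to 17.15 CPM with vehicle and 25.0 to 36.6 with TGFβ, through PDGFRB and COL1A1. With the block both were called higher, PDGFRB by 1.19 (FDR = 7.25e-06) and COL1A1 by 0.60 (FDR = 0.00806) on the log2 scale. Without it neither was called (FDR = 0.0582 and 0.193). COL1A2, COL3A1 and DES had at most 0.144 CPM in any culture. The part of these genes in the results below was not tested. In a bulk culture, fewer cells that carry an RNA and less of it per cell cannot be told apart.

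TGFβ targets responded in these cultures: SMAD7, SKIL and PMEPA1 were all called higher. A gene was called at a false discovery rate (FDR) under 0.05 in the quasi-likelihood F test of edgeR, with p-values adjusted by Benjamini-Hochberg over 22747 genes. Of all genes tested, 3.11% were called higher and 1.01% lower. With the culture number as a block, which compares each TGFβ culture with the vehicle culture of its number, these shares were 8.08% and 3.75%. Over all genes, every TGFβ culture was below every vehicle culture for 8.23% and above for 10.4%. An exact permutation test of 3 cultures against 3 cannot go below p = 0.1, so calls rest on the model across genes.

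Coagulation genes showed small differences after 3 h. All 20 tested members had a log2 fold change between -0.37 and 0.17, with a median of -0.077 against -0.0054 over all genes. Of the 20, 13 were negative, against 51.03% of all genes. None was called without the block, against 4.12% of all genes in either direction. At an unadjusted p under 0.05 there were 3 lower and 0 higher members, against 1131 lower and 1976 higher of all 22747 genes. DESeq2 called 1 member lower, SERPINA10, against 406 of all genes. With the block, 5 members fell (FGA, FGB, FGG, SERPINA10 and CPB2) and SERPINA5 rose, which is 30.0% of the 20 against 11.8% of all genes. The standard error was smaller with the block in all 20, as in 90.0% of all genes. Culture number 2 had the lowest level of its group in both groups for 15 of the 20, against 15.4% of all genes, and the spread within each group ran along the culture numbers. Every number pair was lower in 10 members and higher in 2, against 20.9% and 23.3% of all genes.

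**Figure D2:**
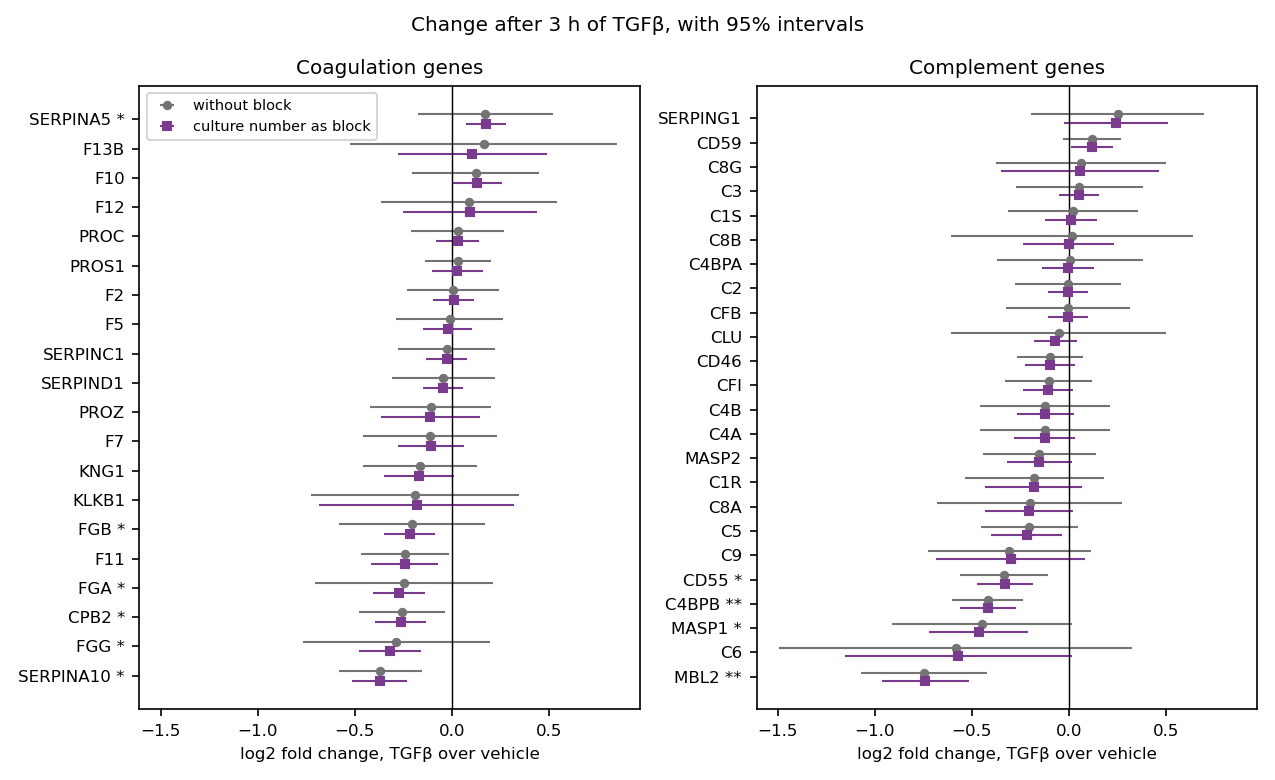
The log2 fold change of TGFβ over vehicle for the 44 tested genes, with 95% intervals, from the fit without block (grey circles) and with the culture number as a block (purple squares). Coagulation genes lie between -0.37 and 0.17 and complement genes between -0.75 and 0.25 without the block; 1 asterisk marks a call with the block only and 2 asterisks a call in both fits.

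The 3 fibrinogen chains, whose genes lie together within 50012 bases of chromosome 4 (155484108 to 155534119, GRCh37), were lower with TGFβ in every number pair. FGA was at 992, 678 and 929 CPM in vehicle cultures 1, 2 and 3 and at 889, 495 and 807 in the TGFβ cultures. FGB was at 245, 195 and 270 CPM with vehicle and at 233, 152 and 231 with TGFβ. FGG was at 1051, 728 and 1011 CPM with vehicle and at 960, 502 and 826 with TGFβ. Number 2 was the lowest culture of both groups in all 3 chains, and the groups overlapped. Within number pairs, the TGFβ level of FGG was 0.913, 0.690 and 0.817 times the vehicle level. Without the block the log2 fold changes were -0.25 (SE 0.20, FDR = 0.726) for FGA, -0.20 (SE 0.17, FDR = 0.722) for FGB and -0.29 (SE 0.21, FDR = 0.685) for FGG. With the block all 3 fell: FGA by 0.27 (SE 0.06, FDR = 0.012), FGB by 0.22 (SE 0.06, FDR = 0.0331) and FGG by 0.32 (SE 0.07, FDR = 0.0154) on the log2 scale. The calls rest on pair number 2, since without it FDR was 0.255, 0.451 and 0.159 for FGA, FGB and FGG, with log2 fold changes of -0.17, -0.13 and -0.20. FGB was also not called without pair 3 (FDR = 0.0659).

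The ratio of FGG to FGA in CPM was 1.06 to 1.09 with vehicle and 1.01 to 1.08 with TGFβ, and that of FGB to FGA was 0.247 to 0.291 and 0.262 to 0.307. F13B, the carrier subunit of the enzyme that cross-links fibrin, was at 1.34 to 2.06 CPM with vehicle and 1.24 to 2.80 with TGFβ and was not called in either fit.

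**Figure D3:**
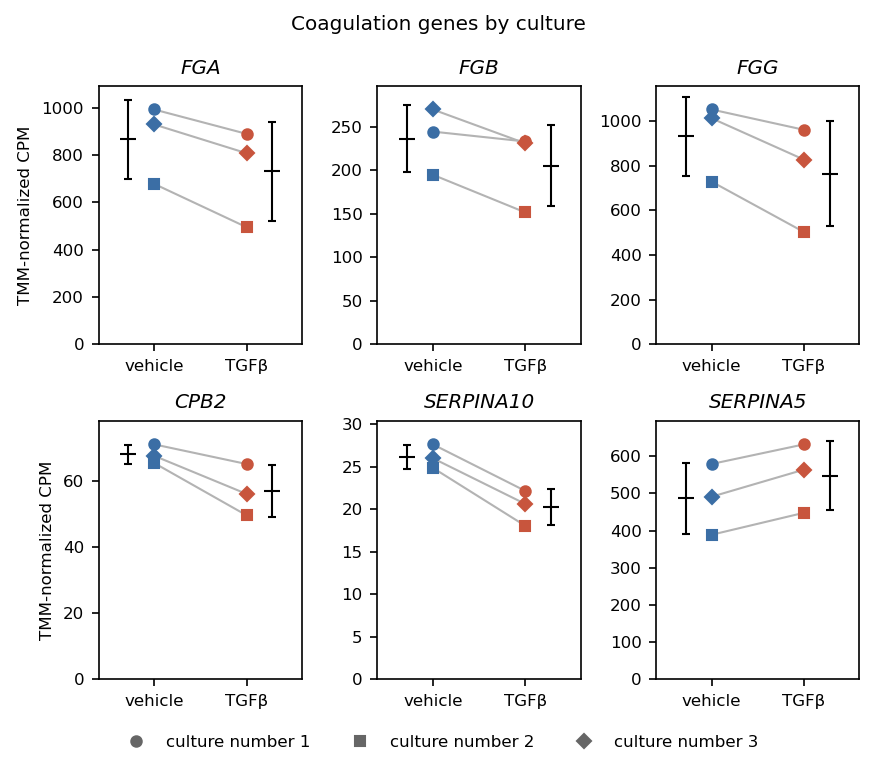
TMM-normalized CPM of the 6 coagulation genes called with the block, by culture, with grey lines joining cultures of the same number and black bars giving the mean ± SD of each group (n = 3). Every line falls for FGA, FGB, FGG, CPB2 and SERPINA10 and rises for SERPINA5, and culture number 2 (squares) is the lowest of its group in all 6 genes.

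Among the inhibitors, SERPINA10, which with its cofactor protein Z blocks factor Xa, had the largest difference of the coagulation genes. It was at 27.7, 24.9 and 26.0 CPM with vehicle and at 22.2, 18.1 and 20.6 with TGFβ. All TGFβ cultures were below all vehicle cultures. On the log2 scale the difference was -0.37 (SE 0.10, FDR = 0.0712) without the block and -0.37 (SE 0.06, FDR = 0.00243) with it, and in the blocked fit the call held with each pair left out in turn, with FDR = 0.00629, 0.0306 and 0.00238. Protein Z itself (PROZ) was at 4.18 to 4.77 CPM with vehicle and 3.74 to 4.40 with TGFβ, overlapping, and was not called.

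SERPINA5, which inhibits activated protein C and other proteases, lies in the same serpin cluster of chromosome 14 and differed in the other direction. It was at 579, 389 and 491 CPM with vehicle and at 632, 448 and 564 with TGFβ. The groups overlapped, but each TGFβ culture was above the vehicle culture of its number, by 1.09, 1.15 and 1.15 times. Its log2 fold change was 0.17 (SE 0.16, FDR = 0.75) without the block and 0.18 (SE 0.05, FDR = 0.0314) with it, a call that was lost without pair 2 (FDR = 0.219) or pair 3 (FDR = 0.139), and with total-count scaling (0.14, FDR = 0.0978). Another row of the table, from 95058395 to 95090983, overlaps the end of SERPINA5 (95027779 to 95059457) and holds 84.5% as many reads. It also spans all of SERPINA3 (95078714 to 95090392), whose levels it followed. That row was at 514, 273 and 427 CPM with vehicle and at 520, 347 and 553 with TGFβ. SERPINA3 was at 478, 250 and 399 CPM with vehicle and at 485, 324 and 524 with TGFβ. How reads were divided between the rows is not stated. The ratio of SERPINA10 to SERPINA5 was 0.0477, 0.0640 and 0.0530 with vehicle and 0.0351, 0.0403 and 0.0366 with TGFβ, without overlap.

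CPB2, which removes plasminogen-binding lysines from fibrin and so slows clot lysis, was at 71.2, 65.6 and 67.7 CPM with vehicle and at 65.3, 49.7 and 56.2 with TGFβ. All TGFβ cultures were below all vehicle cultures, the nearest being 65.3 against 65.6. Its log2 fold change was -0.26 (SE 0.10, FDR = 0.266) without the block and -0.26 (SE 0.06, FDR = 0.0137) with it, and the blocked call was lost without pair 2 (FDR = 0.199). Antithrombin (SERPINC1), at 71.5 to 88.8 CPM with vehicle and 69.9 to 87.8 with TGFβ, and SERPIND1, at 273 to 351 and 259 to 341, were not called in either fit.

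The vitamin K-dependent genes did not pass the test in either fit. F2 was at 404, 315 and 345 CPM with vehicle and at 393, 326 and 350 with TGFβ, overlapping throughout. The fitted log2 difference was 0.0058 (95% interval -0.23 to 0.24, FDR = 0.989) without the block and 0.0091 (-0.095 to 0.11) with it, and it turned to -0.035 with total-count scaling. The 6 tested members of the group had a median log2 fold change of 0.018 and lay between -0.11 and 0.12, among them F7, F10 and the anticoagulants PROC and PROS1. Of the cofactor and contact genes, F5, F11, F12, KNG1 and KLKB1, none was called in either fit, with a group median of -0.16. F11, the zymogen of factor XIa, was at 28.3, 28.7 and 33.6 CPM with vehicle and at 28.2, 23.1 and 25.2 with TGFβ. Its groups did not overlap, by 28.2 against 28.3 CPM, and FDR was 0.318 without the block and 0.0743 with it, at a log2 fold change of -0.24 in both. F12 and KLKB1 lie in rows overlapped by GRK6 and CYP4V2, which hold over 10 times their reads, so their levels are uncertain.

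Other genes of coagulation showed no call without the block, in 16 tested of 20 listed. With it, the tissue factor pathway inhibitor TFPI fell and the protease-activated receptor F2RL1 and the thrombin inhibitor SERPINE2 rose. TFPI was at 140, 189 and 181 CPM with vehicle and at 121, 132 and 120 with TGFβ, without overlap. Its log2 fold change was -0.45 (SE 0.11, FDR = 0.0522) without the block and -0.44 (SE 0.07, FDR = 0.00237) with it. F2RL1 rose by 0.48 (FDR = 0.00386) and SERPINE2 by 0.38 (FDR = 0.00503) in the blocked fit. In fibrinolysis, the urokinase receptor PLAUR rose with the block (log2 fold change 0.49, FDR = 0.0452), which was lost with any 1 pair left out, with total-count scaling (FDR = 0.0641) and in DESeq2 with the block (FDR = 0.102).

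Complement genes also showed small differences, and 2 were called. All 24 members were tested, with a median log2 fold change of -0.11 and 17 of the 24 negative, against 51.03% of all genes. MBL2 and C4BPB fell, which is 8.33% of the members against 1.01% of all genes called lower, and none rose at FDR under 0.05. At an unadjusted p under 0.05 there were 3 lower and 0 higher, against 1131 lower and 1976 higher of all 22747 genes. DESeq2 called 2 members lower and 0 higher, against 406 and 1009 of all genes. With the block CD55 and MASP1 fell as well, 16.7% of the members against 3.75% of all genes called lower. In 4 members (MBL2, C4BPB, CD55 and C9) every TGFβ culture was below every vehicle culture, and in 1 (CD59) every one was above, against 8.23% and 10.4% of all genes. Every number pair was lower in 8 members and higher in 3, against 20.9% and 23.3%. Culture number 2 was the lowest of both groups for 17 of the 24, against 15.4% of all genes.

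MBL2, the mannose-binding lectin that starts the lectin pathway, had the largest difference of all 44 tested members. Its gene lies on chromosome 10 from 54525140 to 54531460. It was at 12.1, 12.7 and 16.4 CPM with vehicle and at 8.73, 7.08 and 8.70 with TGFβ. All TGFβ cultures were below all vehicle cultures, and within pairs the level was 0.724, 0.556 and 0.531 times that of vehicle. The log2 fold change was -0.75 (SE 0.14, 95% interval -1.07 to -0.42, FDR = 0.0174) without the block and -0.74 (SE 0.10, FDR = 0.000499) with it. The call without the block was lost without vehicle culture 3 (-0.60, FDR = 0.0802) or TGFβ culture 2 (-0.66, FDR = 0.0662). The blocked call held with each pair left out.

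The proteases that act with MBL2 were measured beside it. MASP1, whose isoforms a gene count cannot separate, was at 4.54, 5.16 and 6.41 CPM with vehicle and at 3.16, 3.53 and 5.12 with TGFβ. The groups overlapped through TGFβ culture 3, while each pair was lower, at 0.695, 0.683 and 0.798 times. The log2 fold change was -0.45 (SE 0.21, FDR = 0.389) without the block and -0.47 (SE 0.12, FDR = 0.0223) with it, and this call was lost without pair 1 (FDR = 0.0891) or pair 2 (FDR = 0.190). MASP2, the protease that cleaves C4 and C2, was at 15.99, 12.5 and 14.7 CPM with vehicle and at 14.8, 11.5 and 12.5 with TGFβ and was not called in either fit. The classical pathway proteases C1R and C1S were not called either. C1S was at 28.2 to 37.2 CPM with vehicle and 26.4 to 39.6 with TGFβ. The C1R row is overlapped by C1RL and that of C1S by EMG1 and LPCAT3, all of them with more reads.

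**Figure D4:**
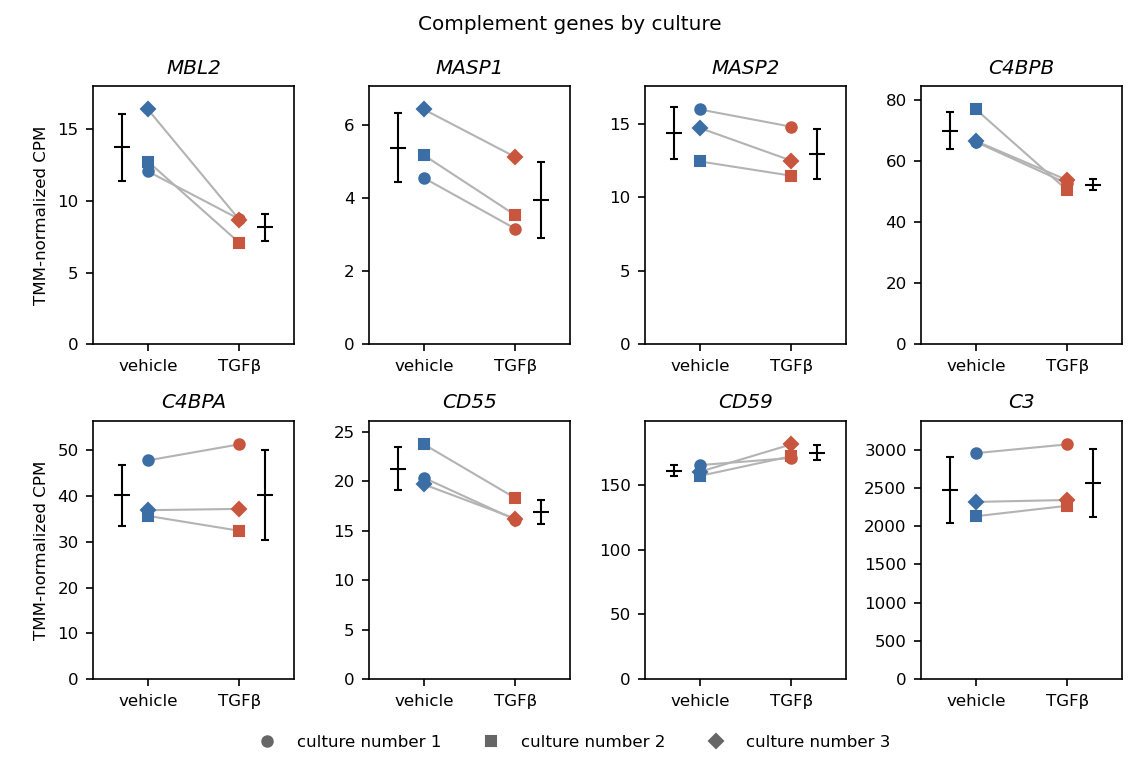
TMM-normalized CPM of 8 complement genes by culture, with grey lines joining cultures of the same number and black bars giving the mean ± SD of each group (n = 3). The TGFβ cultures of MBL2, C4BPB and CD55 lie below all vehicle cultures and those of CD59 above, while the groups of MASP1, MASP2, C4BPA and C3 overlap.

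Among the regulators, the 2 chains of C4b-binding protein, the plasma inhibitor of the classical and lectin C3 convertase, gave unlike values. C4BPB, the β chain that binds protein S, was at 66.2, 76.8 and 66.4 CPM with vehicle and at 52.6, 50.4 and 53.7 with TGFβ. C4BPA, the α chain that binds C4b, was at 47.8, 35.7 and 36.9 CPM with vehicle and at 51.3, 32.4 and 37.2 with TGFβ. C4BPB was lower in all TGFβ cultures without overlap, and C4BPA overlapped throughout. The log2 fold change of C4BPB was -0.42 (SE 0.08, FDR = 0.0174) without the block and -0.42 (SE 0.06, FDR = 0.00127) with it. Without the block it was lost without vehicle culture 2 (FDR = 0.0703) or 3 (FDR = 0.0521), or TGFβ culture 1 (FDR = 0.0551) or 2 (FDR = 0.0789), and with it the call held with each pair left out. That of C4BPA was 0.0067 (95% interval -0.37 to 0.38, FDR = 0.991), and it was -0.0068 with the block. The ratio of C4BPB to C4BPA was 1.38, 2.15 and 1.80 with vehicle and 1.02, 1.552 and 1.44 with TGFβ, lower in each number pair, with overlap between the groups. The difference between the chains was not tested in a model. PROS1, the protein S that the β chain carries, was at 91.8 to 97.2 CPM with vehicle and 91.4 to 105 with TGFβ and was not called.

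C4BPB, C4BPA, CD55 and CD46 lie within 706672 bases of chromosome 1 (207262187 to 207968858), in the cluster of regulators of complement activation. CD55, the membrane protein that dissociates C3 convertases, was at 20.3, 23.7 and 19.7 CPM with vehicle and at 16.1, 18.3 and 16.2 with TGFβ. All TGFβ cultures were below all vehicle cultures. The log2 fold change was -0.33 (SE 0.10, FDR = 0.128) without the block and -0.33 (SE 0.07, FDR = 0.00652) with it, lost without pair 2 (FDR = 0.0709). CD46, the membrane cofactor for CFI, was at 218, 241 and 225 CPM with vehicle and at 227, 212 and 200 with TGFβ and was not called in either fit. The genes of this cluster thus included both called and uncalled members.

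CD59, the membrane inhibitor of the attack complex, was at 165, 157 and 160 CPM with vehicle and at 171, 172 and 181 with TGFβ, every TGFβ culture above every vehicle culture. Its log2 fold change was 0.12 (SE 0.07, FDR = 0.517) without the block and 0.12 (FDR = 0.167) with it, so it was not called. The C1 inhibitor SERPING1 had the highest log2 fold change of the complement genes, 0.25 (SE 0.20, FDR = 0.707), at 2.97 to 4.16 CPM with vehicle and 3.53 to 5.41 with TGFβ. CFI was at 173, 168 and 200 CPM with vehicle and at 180, 146 and 176 with TGFβ (log2 fold change -0.10, 95% interval -0.33 to 0.12, FDR = 0.771). CLU, a soluble inhibitor of the attack complex, was at 119 to 213 CPM with vehicle and 107 to 215 with TGFβ.

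The convertase components did not pass the test in either fit. C3 was at 2955, 2130.3 and 2317 CPM with vehicle and at 3069.7, 2267 and 2342 with TGFβ, and differed by 0.053 on the log2 scale (95% interval -0.27 to 0.38, FDR = 0.929). With the block the interval was -0.049 to 0.16. CFB was at 348, 250 and 308 CPM with vehicle and at 345, 244 and 313 with TGFβ (log2 fold change -0.0049, 95% interval -0.33 to 0.32, FDR = 0.992). The counts of the 2 CFB rows differed by a factor of 0.995 to 1.03 in each culture, and the row of C2 overlaps both, so reads may have been counted in several rows.

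C4A and C4B also cannot be read apart. Their deposited counts were in a ratio of 1.01 to 1.05 in every culture. In the reference their coding sequences differ at 13 of 5232 bases (99.8% identity), and 93.5% of windows of 51 bases, the read length, are the same in both. The stretch from coding base 3337 to 3396 is printed because it holds 5 of the differences, in capitals, in the part that sets the C4 isotype.
C4A: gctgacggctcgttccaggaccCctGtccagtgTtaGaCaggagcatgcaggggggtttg
C4B: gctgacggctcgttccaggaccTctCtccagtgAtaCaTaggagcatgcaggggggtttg
C4A was at 92.8, 65.5 and 86.5 CPM with vehicle and at 73.1, 62.5 and 89.1 with TGFβ, and C4B followed it in every culture.

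Of the 6 terminal components, none was called in either fit, with a median log2 fold change of -0.20. C5 was at 212, 211 and 208 CPM with vehicle and at 219, 160 and 168 with TGFβ, so culture 1 was as high as vehicle and the others lower (log2 fold change -0.20, SE 0.11, FDR = 0.506). C6 had the lowest log2 fold change of the 6, -0.58 (SE 0.41, FDR = 0.648), at 0.249 to 1.09 CPM over all cultures. C9 was at 1.36, 1.35 and 1.69 CPM with vehicle and at 1.21, 1.13 and 1.21 with TGFβ, without overlap (log2 fold change -0.31, SE 0.19, FDR = 0.582), in a row overlapped by DAB2, which holds over 10 times its reads. C8A, C8B and C8G, the chains of C8, were at 0.925 to 2.47 RPKM with vehicle.

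Most other complement genes were at or near 0 in HepG2 cells, and 13 of 35 listed were tested. The C1q chains C1QB and C1QC, the ficolins FCN1 and FCN3 and the collectin COLEC10 had 0 reads in all cultures. None was called without the block. With it VTN, vitronectin, which inhibits the attack complex, rose. It was at 187, 132 and 179 CPM with vehicle and at 200, 163 and 223 with TGFβ, overlapping, with a log2 fold change of 0.24 (SE 0.06, FDR = 0.0146), lost without pair 2 (FDR = 0.131) or pair 3 (FDR = 0.0691).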

How the data were processed

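RNA-seq of 6 HepG2 cultures was used. The authors prepared TruSeq v2 libraries, sequenced paired 51-base reads, aligned them to hg19 and deposited raw counts per gene (MAPRseq), with RPKM per gene beside them. The submitters' processing notes name TopHat2 2.0.6 and HTSeq. The annotation release was not given in the sources used here, nor were the strand setting and the rule for overlapping genes. Counts were tested and RPKM served to compare levels between genes. All per-sample columns were used.

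Counts were normalized by TMM, filtered with filterByExpr and tested with edgeR 4.0.16 (robust quasi-likelihood F test; limma 3.58.1, R 4.3.3) without a block, with Benjamini-Hochberg adjustment over 22747 genes. SE came from the F statistic. CPM values are TMM-normalized; 1 CPM was 61.6 to 96.9 reads. The script was tested on simulated counts.

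Same-numbered cultures deviated together from their group means (r = 0.366, 0.227 and 0.316 across genes, at most 0.0101 for different numbers), so the numbers pair the samples and blocked values are printed where a call changes. The numbers come from the labels. The lanes of the sequencer in the labels were shared by both groups for numbers 1 and 2 and differed for number 3 (lanes 4 and 5).

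The members and lists were chosen with earlier results of these data known. Members called in either fit, non-overlapping members with an absolute log2 fold change of at least 0.5, and the 3 highest by RPKM in each family are given in full, and other lists by up to 6 calls. Other members named with values were chosen after their values were seen. Promoters were taken from RefSeq and placed on GRCh37. Alternatives were another scaling, no filter, DESeq2 1.42.0, the block and leaving out cultures. Some genes that were examined are withheld and not reported here.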

Additional observations from a re-analysis of the deposited data

How the results depend on the processing

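The direction of MBL2 and C4BPB and of the members called with the block held under all 17 alternatives. Without the block, members called lower were 0 of coagulation and 2 of complement. With the replicate block these became 5 and 4 (1 coagulation member higher), and with total-count scaling, no filter or DESeq2 alone 1 coagulation member. Leaving out 1 culture gave 0 to 2 complement members. The 6 fits that join the block to another setting, or leave out a pair, were chosen after seeing the data. The block in DESeq2 1.42.0 gave 5 and 4 (1 higher), with total-count scaling 6 and 4 (0 higher), and with DESeq2 size factors 5 and 4 (1 higher). The block without number 1, 2 or 3 gave 6 (1 higher), 1 and 4 coagulation members lower, and 5, 2 and 4 complement members lower. No complement member was called higher in any fit.

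Over all genes, 707 were higher and 230 lower. Leaving out 1 culture gave 394 to 778 and 91 to 220. The block gave 1837 and 853, with DESeq2 1600 and 739, with total-count scaling 1538 and 1243, with DESeq2 size factors 1839 and 897, and without numbers 1, 2 and 3 1525 and 865, 1095 and 385, and 1890 and 1173. No filter gave 366 lower and DESeq2 alone 406, beside 1009 higher. Total-count scaling alone gave 636 and 297.

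Genes near 0 changed sign. F2 was -0.035 with total-count scaling, -0.017 with no filter and -0.032 with the block and total-count scaling. C4BPA was -0.036, -0.017 and -0.048 in the same fits, -0.0068 with the block, -0.0091 with the block in DESeq2, -0.0089 with the block and DESeq2 size factors, and -0.071 and -0.017 with the block without number 1 or 3. CFB was 0.021 with the block without number 2. Leaving out 1 culture gave F2 -0.078 to 0.0999, C3 -0.10 to 0.19, CFB -0.13 to 0.11, C4BPA -0.21 to 0.14 and TTR -0.40 to 0.023. The cause was not tested. C6, one of the lowest in CPM, had the widest SE of the members, 0.41.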

Other observations

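Of 18 acute-phase genes listed, 15 were tested. The iron hormone hepcidin (HAMP) rose, from 2.73, 4.62 and 3.80 CPM with vehicle to 13.5, 6.40 and 14.7 with TGFβ, without overlap. Its log2 fold change was 1.63 (SE 0.30, FDR = 0.013, edgeR quasi-likelihood), and 1.58 (FDR = 0.0298) with the block. The call was lost without any 1 vehicle culture or TGFβ culture 1 (FDR = 0.0564 to 0.101), and in the blocked fit without pair 1 (FDR = 0.311) or pair 3 (FDR = 0.574), with total-count scaling (FDR = 0.0642) or with DESeq2 size factors (FDR = 0.0607). With the block, SERPINA3 (0.26, FDR = 0.0443) also rose and SAA4 (-0.28, FDR = 0.0124) and FGL1 (-0.20, FDR = 0.0370) fell, each lost without pair 2 (FDR = 0.323, 0.180 and 0.368) and without 1 other pair, and SERPINA3 also with total-count scaling (FDR = 0.0902) or DESeq2 size factors (FDR = 0.0532). CRP had 0 reads in all cultures.

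Of the 10 hepatocyte genes, TTR fell with the block (-0.25, FDR = 0.0495), lost without pair 1 (FDR = 0.0812) or pair 2 (FDR = 0.488). ALB was at 14949.7 to 17229 CPM with vehicle and 13842 to 17138 with TGFβ and was not called.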
